A study of Mus musculus with 6 samples.

Results

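Foxn1 and 7 other regulators of the hair follicle were read on 6 Affymetrix arrays of cultured mouse epidermal keratinocytes. The members are the transcription factors Foxn1, Dlx3, Msx1, Msx2, Lhx2 and Sox9, the secreted ligand Shh and the receptor Edar, 8 of the 19938 genes measured. Each was found by its symbol in the platform annotation, and each had 1 probe set that carried that symbol alone. A probe set is the group of short probes that reads 1 transcript unit. Values are log2(intensity + 16) of the deposited linear intensity, so that differences are on a log2 scale that understates the change of dim genes.

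The keratinocytes came from skin of C57BL/6 embryos at E18.5, shortly before birth, and were cultured for 2 to 5 days with no calcium, per the labels. The 2 control arrays held cells labelled Ovol2flox/+; Ovol1+/- or Ovol2flox/+;K14-Cre, so a control allele set lacks Ovol1 or Ovol2 on 1 chromosome at most. The 2 arrays labelled Ovol1 KO held Ovol1-/- cells, and the 2 Ovol1/2 DKO arrays held Ovol2flox/-;K14-Cre; Ovol1-/- cells, in which both factors are meant to be lost. Both knockout groups thus share the Ovol1-/- label. Littermates shared cages. K14-Cre acts in keratin 14 expressing cells, the basal keratinocytes and their progeny, while the Ovol1 deletion is in the whole animal. Each array pooled 2 mice. Ovol1 and Ovol2 are zinc finger transcription factors of epithelia. The labels call the arrays biological replicates. Since they do not say from which litters or cultures the pools came, p-values measure the spread between these arrays.

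Hair follicles start as thickenings of the embryonic epidermis called placodes, which grow down and later produce a hair shaft within an inner root sheath. Ectodysplasin signals through Edar to set where placodes form, and Shh from the placode drives the downgrowth. Lhx2 and Sox9 mark placodes and, later, the follicle's stem cells and outer root sheath. Msx2, Foxn1 and Dlx3 act in the hair matrix and the forming shaft, where Foxn1 lies downstream of Msx2. Foxn1 is the gene mutated in the hairless nude mouse, and in the epidermis between follicles it is expressed as keratinocytes leave the basal layer and begin to differentiate.

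The arrays were checked first. Ovol1 read 9.64 and 9.95 in control and 5.96 and 6.22 in Ovol1/2 DKO, but 10.75 and 9.80 in the arrays labelled Ovol1 KO, against that label. Directions drawn from those 2 arrays therefore rest on a label its own gene did not bear out. The same probe set read low in Ovol1/2 DKO, which shares the Ovol1-/- label. Why the 2 groups differ in Ovol1 was not tested. Ovol2 read between 6.97 and 8.38 on all 6 arrays. All samples are labelled female. Xist, which coats the silenced X of female cells, ran from 10.99 to 11.43 on 4 arrays but stood at 4.43 and 4.54 in control replicate 1 and replicate 1 labelled Ovol1 KO, and the Y-linked gene Eif2s3y stood at 13.80 on the latter array alone, so the differences of Foxn1, Sox9 and the list genes that passed are also given without both. That leaves 1 control array, 1 array labelled Ovol1 KO and 2 Ovol1/2 DKO arrays, with the spread taken from the Ovol1/2 DKO pair alone. Differences in that setting are therefore given as sizes with no p. Its calls do enter the tallies and ranges over the alternatives and the closing counts of passing genes, which share this limit. Where 1 array is left out, the lone array of its group is assumed to vary like the other groups. The basal keratins Krt5 and Krt14, which define the labelled cell type, were high on every array, from 13.39 to 13.55 and from 13.21 to 13.39. Median intensity lay between 103.3 and 109.8 over the arrays. Over all genes, control replicate 2 correlated at 0.978 and 0.986 with the labelled Ovol1 KO pair, and at 0.969 with control replicate 1. With Ovol1/2 DKO replicate 1, control replicate 1 correlated at 0.963 and control replicate 2 at 0.92. The control pair was thus not closer to itself than to the labelled Ovol1 KO pair. The number of arrays, 2 per group, limits the precision.

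Promoter sequences from RefSeq (GRCm38.p6) matched 5 of the 8 members, Foxn1, Msx1, Msx2, Edar and Lhx2, the last with 2 windows. Each window covers 250 bases before and 50 after a start site. They were searched on both strands for CCGTTA, a site of Ovo-type zinc fingers, for TAATTG, a site of Msx and Dlx homeodomains, and for CAGGTG, the E-box bound by Zeb and Snail repressors, which was added after the values were seen. The letters CCGTTA and TAATTG were in none of the 6 member windows, against 2.76% and 8.0% of all 32851 windows. CAGGTG or its complement was in 3 of the 6, against 20.21% of all windows. A match is a string of letters rather than a shown binding site. Because this motif was added late, its count is a description only, and a link to the levels of the members was not tested. The stretches with these matches are given because Foxn1 is the member whose signal fell; Msx1 and Edar, which carry the same letters, are set beside it and did not pass the test. Capitals mark the E-box letters.
Foxn1, chr11:78386579-78386698, minus strand, positions -90 to 30 around the start site, match at position 5: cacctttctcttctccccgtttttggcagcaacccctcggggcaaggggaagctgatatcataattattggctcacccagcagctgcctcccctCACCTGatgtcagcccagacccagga
Msx1, chr5:37824763-37824822, minus strand, match 210 bases before the start site: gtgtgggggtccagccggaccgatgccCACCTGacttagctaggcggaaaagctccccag
Edar, chr10:58675796-58675855, minus strand, match 132 bases before the start site: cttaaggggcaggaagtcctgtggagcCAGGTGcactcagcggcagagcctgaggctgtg

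**Figure D1:**
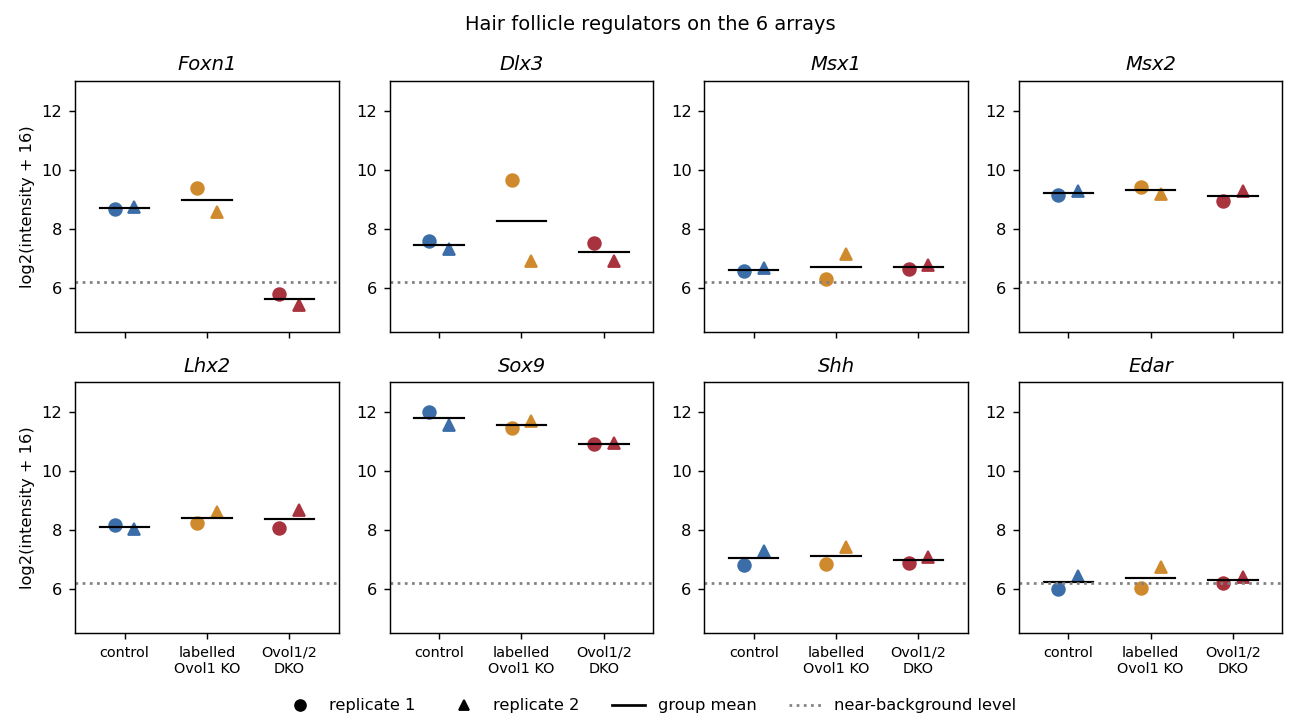
Level of each of the 8 hair follicle regulators on each array, as log2(intensity + 16) on the vertical axis. Circles are replicate 1, triangles replicate 2, bars the mean of a group of 2 arrays, and the dotted line the near-background level of 6.20; Foxn1 is below the line on both Ovol1/2 DKO arrays, and Dlx3 is high on 1 array only.

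Foxn1 was the member that changed. It read 8.66 and 8.73 on the control arrays, 9.38 and 8.57 on the labelled Ovol1 KO pair, and 5.80 and 5.43 on the Ovol1/2 DKO pair. Both Ovol1/2 DKO arrays lay far below all 4 others, and under 6.20, the level called near background here (the highest median, over arrays, of probe sets with no gene symbol). In linear intensity the signal was 389.9 and 409 on the control arrays, 650.2 and 364 on the labelled Ovol1 KO pair, and 39.9 and 27.1 on the Ovol1/2 DKO pair. Foxn1 thus fell in Ovol1/2 DKO against control, by 8.46-fold on this scale (-3.08 in log2, SE 0.31, 2 arrays a group, limma adjusted p = 0.00876), with a 95% interval from -3.81 to -2.35. With the DKO signal set no lower than its array's own median of unnamed probe sets, control was at least 6.31-fold higher. By p-value Foxn1 ranked 61 of 19938 genes in this comparison. In bulk RNA, fewer cells that express a gene and less RNA per cell cannot be told apart.

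Against the arrays labelled Ovol1 KO, Foxn1 fell too (log2 difference -3.36, SE 0.31, limma adjusted p = 0.00645). The comparison uses the same Ovol1/2 DKO arrays as the first. The labelled Ovol1 KO pair differed from control for Foxn1 by 0.28 (SE 0.31, limma adjusted p = 0.999), with a 95% interval from -0.45 to 1.01. The order of the group means was thus labelled Ovol1 KO at 8.97, control at 8.70 and Ovol1/2 DKO at 5.62, and the first pair did not differ beyond its spread. The fall against control lost the call without Ovol1/2 DKO replicate 2 (-2.89, limma adjusted p = 0.0563), and it kept it in 14 of 15 alternatives. Without both arrays that lacked Xist signal the difference was -3.11 from the remaining control array and -2.95 from the remaining array labelled Ovol1 KO. With 2 arrays against 2, an exact permutation test of single values cannot go below a two-sided p of 0.333, so the calls rest on the spread that limma pools over genes.

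**Figure D2:**
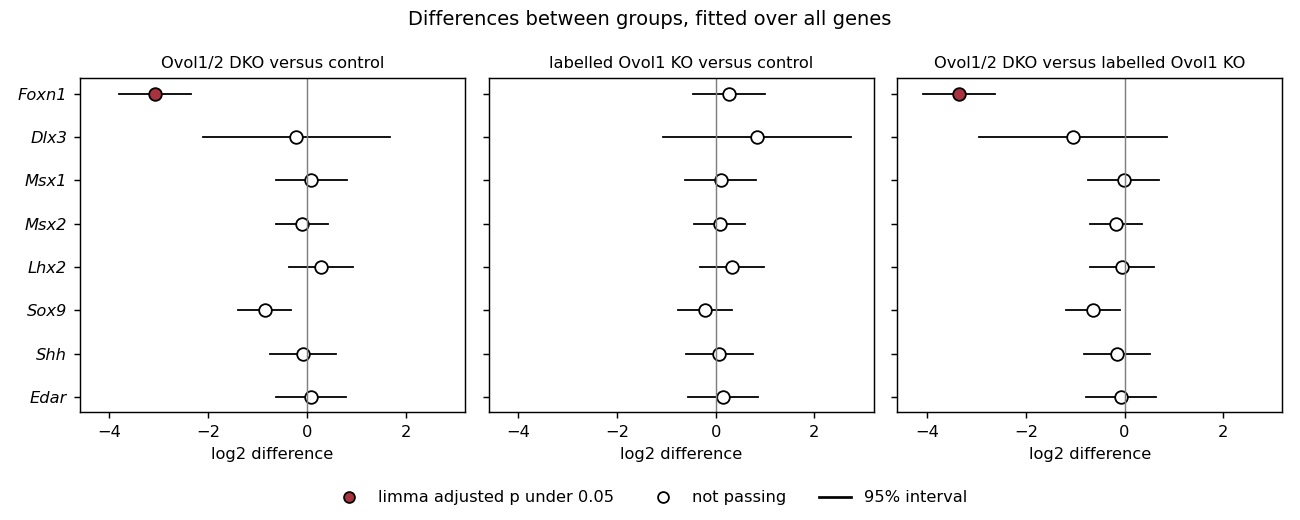
Log2 difference of each member (horizontal axis) in the 3 comparisons, with its 95% interval from the limma fit over all genes and all 6 arrays. Filled points pass an adjusted p under 0.05, which Foxn1 alone does, at -3.08 against control and -3.36 against the arrays labelled Ovol1 KO; the interval of Dlx3 is the widest of the 8.

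As a group, 1 of the 8 members fell in Ovol1/2 DKO against control, none rose and 7 did not pass, where 1.40% of all 19938 genes fell and 0.622% rose. The median difference of the members was -0.09, against 0.03 over all genes. In Ovol1/2 DKO against the arrays labelled Ovol1 KO the count was again 1 lower, and 1.91% of all genes fell and 1.24% rose. No member passed for the labelled Ovol1 KO pair against control, where limma called 0 of the 19938 genes and 153 (0.767%) had an unadjusted p under 0.05, none of them a member. At that unadjusted level the 2 comparisons with Ovol1/2 DKO held 2 members each, Foxn1 and Sox9, beside 10.4% and 14.1% of all genes. The members' median difference was -0.16 for Ovol1/2 DKO against the labelled Ovol1 KO pair, beside 0.02 over all genes, and 0.13 for that pair against control, beside -0.00.

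Sox9, an HMG-box factor that keeps the outer root sheath and stem cells of the follicle, had the next lowest p among the members in both comparisons with Ovol1/2 DKO but did not pass. It read 12.00 and 11.57 on the control arrays, 11.44 and 11.70 on the labelled Ovol1 KO pair, and 10.91 and 10.94 on the Ovol1/2 DKO pair. Both Ovol1/2 DKO arrays lay below all 4 others, which themselves overlapped. The log2 difference was -0.86 against control (SE 0.23, 95% interval -1.40 to -0.31, limma adjusted p = 0.172) and -0.64 against the arrays labelled Ovol1 KO (SE 0.23, limma adjusted p = 0.257). Across the alternatives the first ran from -1.07 to -0.64 and limma's adjusted p from 0.129 to 0.716, and without both arrays lacking Xist signal it was -0.64. Foxn1 and Sox9 were the 2 of 8 members whose Ovol1/2 DKO arrays lay wholly below control, where 18.1% of all genes did. Sox9 on the labelled Ovol1 KO pair differed from control by -0.21 (SE 0.23, limma adjusted p = 0.999).

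Dlx3, a homeodomain factor of suprabasal epidermis and the hair matrix, was set apart by 1 array. It read 7.57 and 7.30 on the control arrays, 9.64 and 6.89 on the labelled Ovol1 KO pair, and 7.53 and 6.92 on the Ovol1/2 DKO pair. The value of 9.64 belongs to replicate 1 labelled Ovol1 KO, the array with the Y-linked signal, and the other 5 arrays overlapped between 6.89 and 7.57. Dlx5, a related homeodomain factor, stood at 9.34 on the same array and between 6.29 and 7.31 on the rest. The spread left a wide interval for Dlx3 in every comparison. Ovol1/2 DKO differed from control by -0.21 (SE 0.80, 95% interval -2.11 to 1.69). The arrays labelled Ovol1 KO differed from control by 0.83 (SE 0.80, limma adjusted p = 0.999), which turned to -0.54 without their replicate 1 and became 2.21 without their replicate 2. Against the arrays labelled Ovol1 KO, Ovol1/2 DKO differed by -1.04 (SE 0.80, limma adjusted p = 0.650), by 0.33 without replicate 1 and by -2.42 without replicate 2, the last passing with the lone array (limma adjusted p = 0.0290). Krt10, a keratin of suprabasal cells, was also highest on replicate 1 labelled Ovol1 KO, at 8.43 against 7.72 to 8.14 on the others. So was Foxn1, at 9.38. Krt1, another keratin, was highest on replicate 2 labelled Ovol1 KO, at 9.20 against 9.03 on replicate 1 of that pair. The part that differentiation or sex of the pool plays in these values was not tested.

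Msx2, the homeodomain factor upstream of Foxn1 in the hair matrix, stayed within a narrow range. It read 9.14 and 9.29 on the control arrays, 9.41 and 9.17 on the labelled Ovol1 KO pair, and 8.94 and 9.29 on the Ovol1/2 DKO pair, with all groups overlapping. Ovol1/2 DKO differed from control by -0.10 (SE 0.22, 95% interval -0.62 to 0.42), an interval for the RNA signal alone. Whether Msx2 has a part in the fall of Foxn1 was not tested. Msx1, a relative of Msx2 that acts with it in the skin, read 6.56 and 6.66 on the control arrays. It read 6.29 and 7.14 on the labelled Ovol1 KO pair, and 6.63 and 6.78 on the Ovol1/2 DKO pair. All 6 values lay within 1 log2 unit of the near-background level. Msx1 differed from control by 0.09 in Ovol1/2 DKO (SE 0.30, 95% interval -0.62 to 0.81) and by 0.11 in the arrays labelled Ovol1 KO (SE 0.30).

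Lhx2, a LIM homeodomain factor of placodes and follicle stem cells, read 8.15 and 8.02 on the control arrays, 8.22 and 8.62 on the labelled Ovol1 KO pair, and 8.07 and 8.67 on the Ovol1/2 DKO pair. Both arrays labelled Ovol1 KO lay above both control arrays, as 8.83% of all genes did in that direction, while Ovol1/2 DKO overlapped with both groups. The differences from control were 0.34 (SE 0.27, 95% interval -0.31 to 0.98) for the arrays labelled Ovol1 KO and 0.29 (SE 0.27, 95% interval -0.36 to 0.94) for Ovol1/2 DKO, with limma adjusted p values of 0.999 and 0.978.

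The signalling members were dim. Shh, the ligand, read 6.81 and 7.30 on the control arrays, 6.85 and 7.41 on the labelled Ovol1 KO pair, and 6.88 and 7.09 on the Ovol1/2 DKO pair. Edar, the ectodysplasin receptor, read 6.01 and 6.46, 6.04 and 6.74, and 6.21 and 6.42 in the same order, on both sides of the near-background level of 6.20. Ovol1/2 DKO differed from control by -0.07 for Shh (SE 0.28, 95% interval -0.74 to 0.60) and by 0.08 for Edar (SE 0.30, 95% interval -0.63 to 0.79), and neither passed. Replicate 2 lay above replicate 1 in all 3 groups for Shh, Edar and Msx1, a pattern that 19.9% of all genes showed. Near the background level, a difference in Edar or Msx1 was not detectable beyond these intervals.

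The pattern of Foxn1 over the 6 arrays was compared by Pearson correlation with 14177 genes. These had a highest group mean above the near-background level, and symbols of kinds such as Gm and Rik were left out. Most like Foxn1 were Cltb (0.998), Adgrl2 (0.998), Usp6nl (0.997), Dusp8 (0.997), Arhgap27 (0.996) and L1cam (0.996). Cltb encodes a clathrin light chain, Adgrl2 an adhesion G protein coupled receptor, Dusp8 a MAP kinase phosphatase and L1cam a cell adhesion molecule. Adgrl2 read 11.82 and 11.86 in control and 10.25 and 9.97 in Ovol1/2 DKO, and L1cam read 8.39 and 8.22 against 6.87 and 6.54. The ranking is a description of the log2 values on 6 arrays, with no test. Among the members, Sox9 had the highest correlation with Foxn1 (0.84), followed by Msx2 (0.48), Dlx3 (0.48), Shh (0.11), Edar (-0.12), Msx1 (-0.22) and Lhx2 (-0.29).

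**Figure D3:**
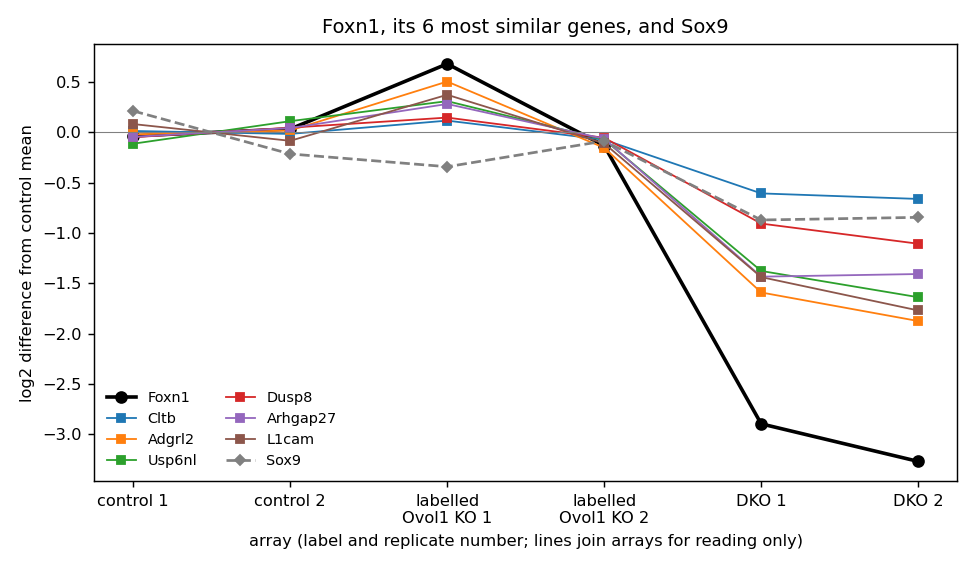
Log2 difference from the control mean on each of the 6 arrays for Foxn1 (black), the 6 genes with the most similar pattern, and Sox9 (dashed). Lines only join the points of 1 gene; all 8 genes are lowest on the 2 Ovol1/2 DKO arrays, and Foxn1 spans the widest range.

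The wider gene lists of the follicle were read in the same fit. Of 20 other hair follicle transcription factors, 2 fell in Ovol1/2 DKO against control, none rose and 18 did not pass. Grhl3, a grainyhead-like factor of the epidermal barrier, read 11.15 and 11.13 on the control arrays, 11.70 and 11.12 on the labelled Ovol1 KO pair, and 6.94 and 7.98 on the Ovol1/2 DKO pair. It fell by 3.68 (SE 0.37, limma adjusted p = 0.00905) and passed in all 15 alternatives. Foxc1, a forkhead factor of follicle stem cells, fell by 1.53 (SE 0.23, limma adjusted p = 0.0280), with 9.28 and 9.56 in control and 7.94 and 7.85 in Ovol1/2 DKO. Its call was lost without control replicate 2 (-1.39), without Ovol1/2 DKO replicate 1 (-1.57) and without Ovol1/2 DKO replicate 2 (-1.48). Against the labelled Ovol1 KO pair, Grhl3 fell by 3.96 (SE 0.37) and Foxc1 by 1.83 (SE 0.23), with limma adjusted p values of 0.00674 and 0.0125; Foxc1 lost that call without labelled Ovol1 KO replicate 1 (-1.63) or either Ovol1/2 DKO array (-1.87 and -1.79). Without both arrays lacking Xist signal, the differences from control and from labelled Ovol1 KO were -3.68 and -3.67 for Grhl3 and -1.67 and -1.63 for Foxc1. The list median was 0.04, against 0.03 over all genes. Hoxc13, which like Foxn1 activates hair keratins, read between 5.74 and 6.81 on all arrays.

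Of 15 Hedgehog pathway genes measured, 1 rose in Ovol1/2 DKO against control and 14 did not pass. Gas1, a co-receptor that binds Shh, read 8.56 and 8.41 on the control arrays, 8.56 and 8.11 on the labelled Ovol1 KO pair, and 10.09 and 10.71 on the Ovol1/2 DKO pair. It rose by 1.91 (SE 0.28, limma adjusted p = 0.0275), and by 2.07 against the arrays labelled Ovol1 KO (SE 0.28, limma adjusted p = 0.0158). The first call was lost without any 1 of the control or Ovol1/2 DKO arrays, at 1.99, 1.84, 2.23 and 1.60 in turn, and the other without either labelled Ovol1 KO array or Ovol1/2 DKO replicate 2, at 2.29, 1.85 and 1.76. Without both arrays lacking Xist signal the differences were 1.99 and 2.29. All 15 differences were above 0, with a median of 0.34, where 55.6% of all genes were above 0 at a median of 0.03. Of the 15 genes, 13 had a mean above the near-background level in either group. Against the labelled Ovol1 KO pair, 12 of the 15 differences were above 0, beside 52.3% of all genes. They ran from -0.21 to 2.07 there, with a median of 0.58. The pathway's transcription factors Gli3 (1.44, SE 0.39) and Gli2 (1.22, SE 0.33), named after their values were seen, did not pass against control (limma adjusted p = 0.181 for each). Each passed there in 2 of 15 alternatives. Against the labelled Ovol1 KO pair, Gli3 differed by 1.99 (limma adjusted p = 0.0502) and passed in 9 of 15 alternatives, and Gli2 differed by 1.46 (limma adjusted p = 0.0804) and passed in 5 of 15. Gli1, a common readout of Hedgehog signalling, was 0.20 higher (SE 0.23) and Ptch1, the receptor and also a target, 0.27 higher (SE 0.39), neither passing.

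Of 16 stem cell and placode genes, 1 rose in Ovol1/2 DKO against control and 2 against the arrays labelled Ovol1 KO, with none lower. Sostdc1, a secreted antagonist of BMP and Wnt ligands found around placodes, read 7.18 and 6.87 on the control arrays, 7.35 and 6.49 on the labelled Ovol1 KO pair, and 9.16 and 10.58 on the Ovol1/2 DKO pair. It rose by 2.84 (SE 0.50, limma adjusted p = 0.0459), but most settings ended this call, which was lost in 10 of 15 alternatives. Among them were those without either control array, either array labelled Ovol1 KO or Ovol1/2 DKO replicate 2, where the difference ran from 2.13 to 3.001. Against the labelled Ovol1 KO pair it rose by 2.95 (SE 0.50, limma adjusted p = 0.0311), a call lost in 5 of 15 alternatives, namely without either array of that pair (3.38 and 2.52) or Ovol1/2 DKO replicate 2 (2.24), with an offset of 64 and with quantile normalization. Without both arrays lacking Xist signal the differences were 3.001 and 3.38. Cd34, a surface protein of the stem cell bulge, read 8.34 and 8.50 on the control arrays, 7.42 and 8.06 on the labelled Ovol1 KO pair, and 9.09 and 9.62 on the Ovol1/2 DKO pair. It rose by 1.61 against the arrays labelled Ovol1 KO (SE 0.29, limma adjusted p = 0.0404), a call lost in 5 of 15 alternatives, namely without labelled Ovol1 KO replicate 1 (1.29), Ovol1/2 DKO replicate 1 (1.87) or Ovol1/2 DKO replicate 2 (1.35), with an offset of 64 and with quantile normalization. Without both arrays lacking Xist signal it was 1.29. The list median was 0.33 against control.

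None of 20 genes of the hair shaft and inner root sheath passed in any comparison. Dsg4, a hair shaft desmoglein, stayed between 4.97 and 5.19 and Krt25, an inner root sheath keratin, between 5.04 and 5.29, below the near-background level on every array. Krt75, a keratin of the follicle's companion layer, read 7.10 and 10.69 on the control arrays, 9.25 and 9.09 on the labelled Ovol1 KO pair, and 5.30 and 5.99 on the Ovol1/2 DKO pair. Its difference from control of -3.25 (SE 1.02, limma adjusted p = 0.258) did not pass, with control arrays far apart. Against the labelled Ovol1 KO pair it was -3.52 (SE 1.02, limma adjusted p = 0.161). Both Ovol1/2 DKO values lie below the near-background level of 6.20, so these differences are measured on 1 side only. The first was -5.04 without control replicate 1 and also without both arrays lacking Xist signal, settings that leave 1 control array. With both control arrays kept, it did not pass in any alternative. The second passed in 4 of 15. S100a3, a calcium-binding protein of the hair cuticle, differed by -1.003 (SE 0.27, limma adjusted p = 0.183). Krt86, a hair shaft keratin, differed by -0.53 between Ovol1/2 DKO and the labelled Ovol1 KO pair (SE 0.26, limma adjusted p = 0.446). The list median was -0.02 against control.

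None of 14 ectodysplasin pathway genes measured passed either. The lowest p values belonged to Nfkb2, an NF-kappaB subunit (-0.72, SE 0.24, limma adjusted p = 0.294), and Nfkbia, its inhibitor and target (-0.59, SE 0.21, limma adjusted p = 0.347), both with the Ovol1/2 DKO arrays below control. Against the labelled Ovol1 KO pair the lowest p values belonged to the ligand Eda (0.71, SE 0.22, limma adjusted p = 0.194) and Nfkbia (-0.66, SE 0.21, limma adjusted p = 0.203). Among 18 relatives of the members none passed, with Dlx4 (0.47, SE 0.21) and Foxn3 (0.32, SE 0.21) having the lowest p values against control, and also against the labelled Ovol1 KO pair (0.39 and 0.51). None of these lists held a passing gene for the labelled Ovol1 KO pair against control, where the 2 lowest p values of each list belonged to Eda (-0.51) and Traf6 (-0.23), Dhh (-0.49) and Hhip (0.36), Hoxc13 (-0.54) and Foxc1 (0.30), Cd34 (-0.67) and Nog (-0.82), S100a3 (-0.60) and Krt33a (0.61), and Foxn2 (-0.43) and Dlx5 (0.97).

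**Figure D4:**
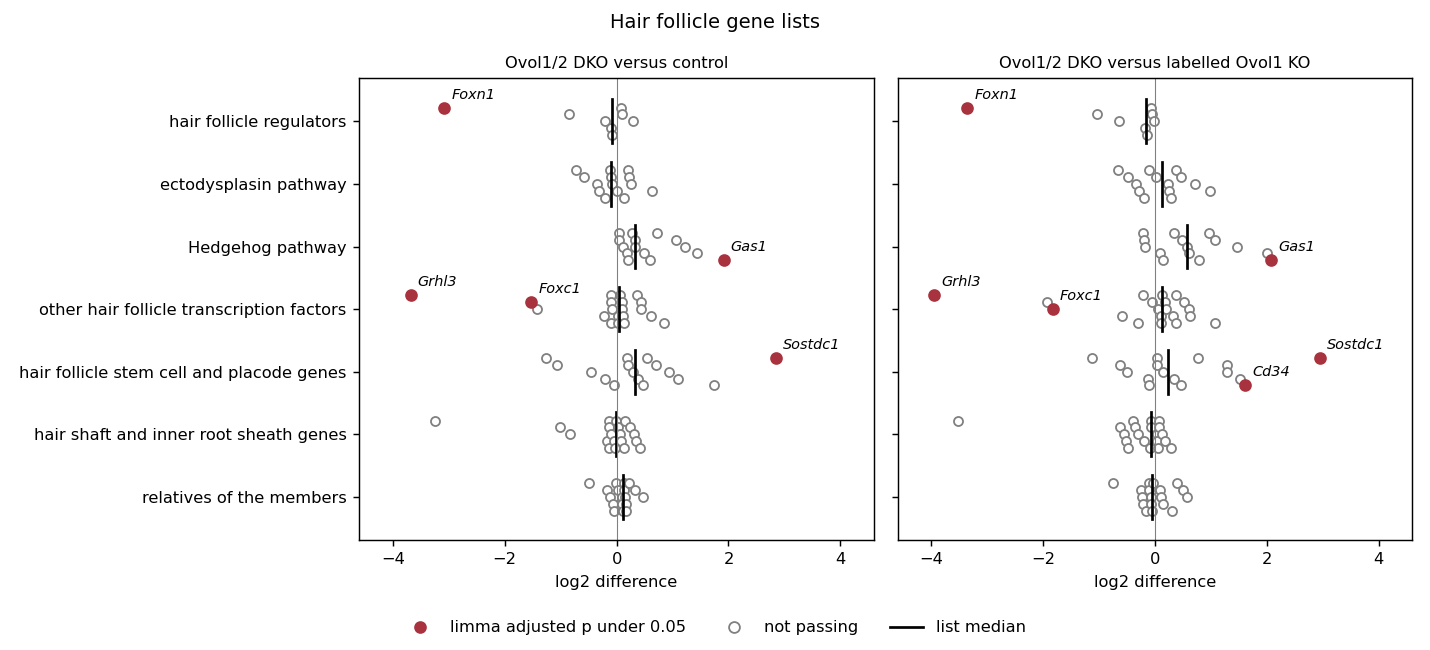
Log2 difference of each measured gene of 7 hair follicle lists (rows) in the 2 comparisons that involve Ovol1/2 DKO; black bars are list medians and filled, labelled points pass limma's adjusted p under 0.05. Grhl3 and Foxn1 lie farthest to the left among passing genes, and Sostdc1 farthest to the right.

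Markers of other cells moved with the groups in part. Of 9 fibroblast markers measured, Thy1 rose in Ovol1/2 DKO against control (1.67, SE 0.22, limma adjusted p = 0.0187) and 8 did not pass, with a list median of 0.07 beside 0.03 over all genes. The summed intensity of the list was 971 to 1686 in control and 1032 to 1690 in the labelled Ovol1 KO pair. In Ovol1/2 DKO it was 1746 to 2485, and Lum was at most 5.36 on any array. That sum includes Thy1, at 7.99 and 7.97 in control and 9.62 and 9.68 in Ovol1/2 DKO. Col1a1, Col1a2, Col3a1 and Dcn overlapped between these groups, with Dcn at 7.25 and 8.40 against 7.35 and 8.30. Thy1 and Postn, the latter at 5.18 and 5.65 in control and 6.62 and 8.65 in Ovol1/2 DKO, were the highest differences of that list, and Pdgfra was the lowest at -0.66. None of 8 melanocyte markers passed, with a median difference of -0.66 (Tyrp1 -1.74 and Mitf -0.95 having the lowest p values) and a summed intensity of 1236 to 1334 in control, 829 to 1112 in the arrays labelled Ovol1 KO and 648 to 805 in Ovol1/2 DKO; Tyr was at most 5.70. Of 8 dermal papilla markers Prdm1 fell (-3.66, SE 0.56, limma adjusted p = 0.0307), a gene that differentiating keratinocytes also express, while Alx4 and Rspo3 were at most 5.92 and 6.10. Of 6 Schwann and Merkel cell markers Krt8 fell (-1.79, SE 0.28, limma adjusted p = 0.0316) and 5 did not pass. Krt8 read 12.27 and 12.65 in control and 10.45 and 10.89 in Ovol1/2 DKO, while Krt20 was at most 5.88 and Atoh1 at most 6.55 on any array. These calls against control were lost in 7 of 15 alternatives for Prdm1, 5 for Krt8 and 3 for Thy1, and without both arrays lacking Xist signal the differences were -4.20, -1.98 and 1.68. No keratinocyte, leukocyte, endothelial or skeletal muscle marker passed against control, with Trp63 (0.93), Col17a1 (0.51), Lyz2 (-1.34), Csf1r (-0.31), Kdr (-1.15), Pecam1 (0.84), Myog (-0.33) and Myh8 (0.25) having the lowest p values. Against the labelled Ovol1 KO pair, Thy1 (1.90), Vcan (2.51), Trp63 (1.097) and Pecam1 (1.28) rose and Prdm1 (-3.95) and Krt8 (-1.72) fell. Of 15 alternatives these calls were lost in 9 for Trp63, 6 for Krt8, 4 for Prdm1 and 3 each for Thy1, Vcan and Pecam1. Without both arrays lacking Xist signal the differences were 1.69 for Thy1, 2.28 for Vcan, 1.24 for Trp63, 1.25 for Pecam1, -3.76 for Prdm1 and -1.97 for Krt8. The part of these cells in the values above was not tested.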

How the data were processed

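The deposited table holds 1 linear probe set intensity per array. Affymetrix Expression Console 1.1.1 and PLIER 2.0 are the tools that the submitters' processing notes list; the authors' background and scaling steps were not given in the sources used here. Of 35556 probe sets, 21789 had 1 symbol in the platform annotation, 1621 several and 12146 none. Symbols were updated by Entrez identifier, and the probe set with the highest mean was kept per gene. Values were taken as log2(intensity + 16). One limma 3.58.1 model in R 4.3.3 over all 6 arrays, without covariates, gave the 3 comparisons, with Benjamini-Hochberg adjustment over 19938 genes and an adjusted p under 0.05 passing. The fit was tested on simulated data.

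The members and lists were chosen with earlier results of these data known. All members, and from each other list up to 4 passing genes, or the 2 of smallest p where none passed, are named; for the marker lists this departs from the fixed rule, in that the other 2 comparisons name passing genes only. Eif2s3y, Krt5, Krt14, Krt25, Krt1, Krt10, Gli1, Gli2, Gli3, Ptch1 and Dsg4 were named after their values were seen. So were Lum, Postn, Pdgfra, Col1a1, Col1a2, Col3a1, Dcn, Tyr, Alx4, Rspo3, Krt20 and Atoh1. Alternatives were offsets of 1 and 64, quantile normalization, median centring, leaving out dim genes, every probe set, only the groups compared, a replicate block and leaving out each array. For each comparison, leaving out an array of the group not compared gives the same fit as using only the groups compared. A tally of 15 thus holds that fit more than once. Leaving out both arrays without Xist signal was added after seeing the data, and tallies of 15 count it.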

Additional observations from a re-analysis of the deposited data

How the results depend on the processing

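Of the 120 values tried for the members in Ovol1/2 DKO against control, 111 kept the direction and the side of the threshold. The member count stayed at 1 in 14 of 15 alternatives and ran from 0 to 1 with single arrays left out; against the arrays labelled Ovol1 KO it ran from 1 to 2, Dlx3 being added without replicate 2 of that group. The count of all genes passing depended more on the settings. In Ovol1/2 DKO against control it was 403, 155 with an offset of 64, 99 to 455 with single arrays left out and 1393 without both arrays lacking Xist signal; against the arrays labelled Ovol1 KO it was 628, 311 with an offset of 64, 135 to 829 with single arrays left out and 1502 without both. For labelled Ovol1 KO against control it was 0, 0 to 3 with single arrays left out and 20 without both, a setting whose spread comes from the Ovol1/2 DKO pair alone. The cause was not tested. With the replicate number as a replicate block, the counts became 597, 0 and 1022 and no member changed its call, while Sostdc1 lost its call against control (adjusted p = 0.0605) and Gli2 gained one (adjusted p = 0.035), both by limma. An offset of 64 ended limma's calls against control for Gas1 (adjusted p = 0.0655), Foxc1 (0.0565) and Sostdc1 (0.126), and quantile normalization that for Sostdc1 (0.0875). The numbers are not said to mark a shared litter or day, and deviations of replicate 1 arrays from their group means correlated at 0.26, 0.49 and 0.19 between groups.

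Small differences changed sign. Without both arrays lacking Xist signal, Edar became -0.14 in Ovol1/2 DKO against control, Dlx3 0.33 and Gli1 -0.0588 in Ovol1/2 DKO against labelled Ovol1 KO, and Foxn1 -0.16, Dlx3 -0.41, Msx2 -0.11, Sox9 0.13, Foxc1 -0.0341 and Dlx5 -0.31 in labelled Ovol1 KO against control. With quantile normalization, Msx1 (0.0161) and Edar (0.0017) turned in Ovol1/2 DKO against labelled Ovol1 KO. With single arrays left out, the differences in Ovol1/2 DKO against control ran from -0.52 to 0.0927 for Dlx3, -0.27 to 0.0731 for Msx2, -0.0111 to 0.59 for Lhx2, -0.32 to 0.17 for Shh, -0.14 to 0.30 for Edar, -0.1851 to 0.7196 for Ptch1, -3.03 to 0.35 for Lyz2 and -0.78 to 0.16 for Csf1r. In labelled Ovol1 KO against control they ran from -0.13 to 0.68 for Foxn1, -0.54 to 2.21 for Dlx3, -0.32 to 0.53 for Msx1, -0.0393 to 0.20 for Msx2, -0.43 to 0.0008 for Sox9, -0.20 to 0.36 for Shh, -0.20 to 0.51 for Edar, -0.86 to 0.0016 for Foxn2 and -0.55 to 2.50 for Dlx5. In Ovol1/2 DKO against labelled Ovol1 KO they ran from -2.42 to 0.33 for Dlx3, -0.44 to 0.42 for Msx1, -0.35 to 0.25 for Lhx2, -0.43 to 0.13 for Shh, -0.43 to 0.28 for Edar and -0.0588 to 0.3293 for Gli1. Foxn1 in Ovol1/2 DKO ran from -3.56 to -2.25 against control with offsets of 1 and 64.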

Other observations

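The members that did not pass had their closest patterns among other genes too. Dlx3 was followed over the 6 arrays by Arhgap1 (Pearson r = 0.994), Ap5s1 (0.992) and Rapgefl1 (0.990), and Rapgefl1 stood at 9.02 on replicate 1 labelled Ovol1 KO against 6.76 to 7.54 on the others. Sox9 was followed by Rffl (0.997), Gpr85 (0.990) and Ptpn13 (0.988); Ptpn13, a protein tyrosine phosphatase, read 11.39 and 10.80 on the control arrays, 10.72 and 10.87 on the labelled Ovol1 KO pair, and 9.52 and 9.60 on the Ovol1/2 DKO pair. Shh and Edar correlated with each other at 0.96 and Msx1 with Edar at 0.90, all 3 being dim genes that were higher in replicate 2 of every group. Correlations over 6 arrays share the same arrays and processing and are given as descriptions.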
